A study of Mus musculus with 9 samples.

Results

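Barrel map signalling genes belong to signalling pathways in which mutations in mice disturb the barrels. Barrels are the clusters of layer IV neurons that mirror the whiskers in the somatosensory cortex. Named by gene symbol, 8 such genes were taken: Htr1b and Maoa of serotonin signalling, Grin1 and Grin2b of the NMDA receptor, Grm5 and Plcb1 of metabotropic glutamate signalling, and Adcy1 and Prkar2b of cyclic AMP signalling. In the platform annotation used here, 8 of the 22690 probe sets on the array carried the symbol of a single member, and they belonged to 4 genes. These were Htr1b (1 probe set), Maoa (1), Grin2b (2) and Plcb1 (4), whereas Grin1, Grm5, Adcy1 and Prkar2b were not analysed here. Of the 8 probe sets, 5 passed a filter that kept the brighter 60% of all probe sets, and the other 3 (1 of Grin2b and 2 of Plcb1) lay under it and are given as values and from a fit without the filter.

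Gap43, the gene of a growth cone phosphoprotein, was knocked out (KO), heterozygous (HZ) or wild type (WT) in C57BL/6 mice taken on postnatal day 5, with 3 mice and 3 arrays per genotype. Layer IV of the barrel cortex was cut out with a laser, and its total RNA was amplified through a pair of cDNA synthesis cycles. The labels name no treatment and no second allele, and they do not say which part of Gap43 is missing. All comparisons rest on n = 3 per genotype, which bounds their precision.

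Barrels form when axons of thalamic neurons reach layer IV and the layer IV neurons gather around them and turn their dendrites inwards. Monoamine oxidase A breaks down serotonin, and in mice without it excess serotonin acting at the 5-HT1B receptor on thalamic axons prevents barrels. On the cortical side, NMDA receptors and the mGluR5 receptor with its effector phospholipase C beta 1 are needed for layer IV neurons to arrange themselves, and the calcium-sensitive adenylyl cyclase encoded by Adcy1, the gene mutated in barrelless mice, and the protein kinase A subunit encoded by Prkar2b act in the cyclic AMP branch.

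The 250 bases before the RefSeq start site (GRCm38.p6) of Htr1b and Maoa are shown because these are the pair of serotonin members with values. The Htr1b stretch lies at chr9:81633833-81634082 on the minus strand and the Maoa stretch at chrX:16619448-16619697 on the plus strand. Capitals mark every match, on either strand, to the TATA motif TATAAA, the GC box GGGCGG, the cyclic AMP response element TGACGTCA, its short form TGACG (part of the full element) and the CCAAT box.
Htr1b: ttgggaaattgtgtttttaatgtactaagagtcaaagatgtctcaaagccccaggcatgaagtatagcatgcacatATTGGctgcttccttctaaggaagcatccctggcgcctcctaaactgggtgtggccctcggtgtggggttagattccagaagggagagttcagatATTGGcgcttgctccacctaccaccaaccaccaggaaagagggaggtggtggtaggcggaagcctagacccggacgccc
Maoa: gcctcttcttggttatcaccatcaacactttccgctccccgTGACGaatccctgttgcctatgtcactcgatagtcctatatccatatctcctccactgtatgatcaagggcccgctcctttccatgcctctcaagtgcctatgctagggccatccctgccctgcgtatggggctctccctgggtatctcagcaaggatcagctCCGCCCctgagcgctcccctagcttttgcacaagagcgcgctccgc
Htr1b held 2 matches to CCAAT, with first bases at -174 and -79 from the start site, a motif present in 33.8% of 32851 promoter windows of this length. Maoa held 1 match to GGGCGG at -46 (present in 32.7% of windows) and 1 to TGACG at -209 (17.8% of windows). The GC content was 52.4% for Htr1b and 56.8% for Maoa, against a median of 52.4% over all windows. The matches are letters in a window and were not tested against the array values.

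Gap43 itself was read at intensities of 979, 1930 and 1299 in KO, 5015, 5039 and 4389 in HZ and 7089, 4746 and 4294 in WT. It fell in KO against WT (log2 change -1.95, limma adjusted p = 0.0173) and in KO against HZ (-1.82, adjusted p = 0.0362), and each was the only call among 13576 probe sets tested. The first call ended without KO 3 (adjusted p = 0.0698), HZ 2 (0.0548), WT 1 (0.0696) or WT 2 (0.0502), and the second without KO 1 (0.0513), KO 3 (0.0619), HZ 1 (0.148), HZ 2 (0.168), HZ 3 (0.0661) or WT 2 (0.0956). The first also ended without the filter (0.204) or the intensity trend (0.0824), and the second without the filter (0.287) or the trend (0.144), with quantile normalization (0.0782) or with arrays set to one median (0.0902). HZ 2 stood apart in the ratio of 3' to 5' signal of the Actb control, at 25.1 against 7.80 to 12.4 on the other arrays. Of 10 layer IV and upper layer markers, 7 had a named probe set and 6 passed the filter, Rorb among them, and their summed intensity was 16726 to 18747 in KO, 16560 to 18434 in HZ and 15882 to 18040 in WT. A sum weighs bright genes most. Gene by gene, 3 of the 6 past the filter were above 0 and 3 below in KO against WT (median log2 change -0.14). Those below were Rorb at -0.66, Rora at -0.54 and Cux1 at -0.29, and those above were Mef2c at 0.13, Cux2 at 0.09 and Lmo4 at 0.01. In HZ against WT 4 were above and 2 below (0.14), and in KO against HZ 1 was above and 5 below (-0.25). By limma 0 of these markers passed. Of the 8 thalamic neuron markers, Tcf7l2, Gbx2, Lef1 and Prox1 lay under the filter. The list includes Rora and Calb2, which cortical neurons also express. Its summed intensity was 3303 to 4068 in KO, 4745 to 5424 in HZ and 4167 to 4693 in WT. Of the 4 past the filter, 1 was above 0 in KO against WT (Cacna1g at 0.42) and 3 below. Those below were Calb2 at -0.87, Rora at -0.54 and Slc17a6 at -0.19, and 0 of the 4 passed by limma. Astrocyte markers, 13 of 16 past the filter, summed to 24129 to 32746 in KO, 29506 to 30389 in HZ and 29337 to 35838 in WT. Taken gene by gene, 3 of the 13 astrocyte markers were above 0 and 10 below in KO against WT (median log2 change -0.32, with Gja1 at -1.04, S100b at -0.95 and Aldoc at -0.70), and likewise 3 above and 10 below in HZ against WT (median -0.17), and 0 passed by limma. The 3 above 0 in KO against WT were Id3 at 0.69, Gfap at 0.11 and Fabp7 at 0.05. Whether shifts in cell makeup or RNA quality have a part in the results below was not tested, and in tissue fewer cells of a type and less RNA per cell cannot be told apart.

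**Figure D1:**
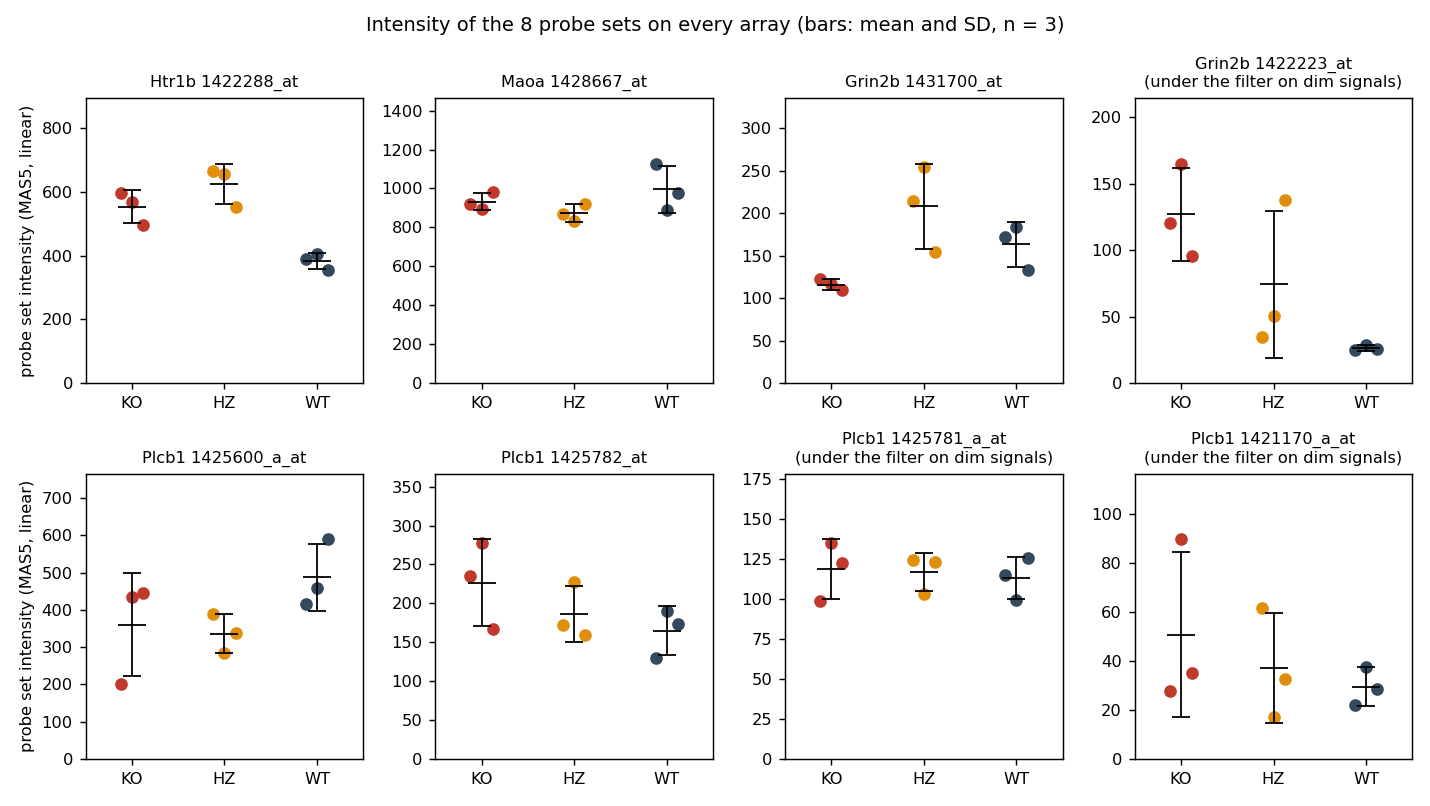
Intensity of each of the 8 probe sets (vertical axis, linear MAS5 units, starting at 0) on the KO, HZ and WT arrays, with 1 point per mouse and bars for the mean and SD (n = 3). The Htr1b points of KO and HZ all lie at 495 or more and those of WT all lie at 405 or less, whereas the 2 Grin2b probe sets place KO at opposite ends.

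Htr1b, the 5-HT1B serotonin receptor gene, stood higher on every KO and every HZ array than on any WT array. Its intensity was 596, 569 and 495 in KO, 666, 658 and 553 in HZ and 390, 405 and 355 in WT. The means were 553 ± 52.2 in KO, 626 ± 62.8 in HZ and 383 ± 25.5 in WT (SD, n = 3 each), so that HZ lay highest, KO next and WT lowest, and the KO and HZ ranges overlapped. All 6 KO and HZ arrays lay above all 3 WT arrays, which held for 2.21% of the probe sets tested. Every KO array was above every WT array for 7.83% of them, and every HZ array for 8.51%. The RNA was taken from layer IV of the cortex and not from the thalamus, and which cells gave the Htr1b signal was not tested.

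Against WT, the fitted difference of Htr1b was 1.42-fold in KO (log2 change 0.51 ± 0.16, SE, 95% interval 0.17 to 0.85) and 1.60-fold in HZ (0.68 ± 0.16, 0.34 to 1.02). Neither passed over all 13576 probe sets (limma adjusted p = 0.475 for KO and 0.789 for HZ). The unadjusted p was 0.00612 for KO and 0.000760 for HZ. The 2-sided exact permutation test gave p = 0.1 for each, the smallest that 3 arrays against 3 can give. These comparisons share the WT arrays. KO against HZ, Htr1b had a log2 difference of -0.17 (95% interval -0.51 to 0.16, limma adjusted p = 0.849), which leaves room for a KO level between 0.703 and 1.12 times that of HZ.

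The Htr1b difference did not hang on a single array. Leaving out each array in turn gave log2 differences of 0.45 to 0.58 for KO against WT and of 0.63 to 0.77 for HZ against WT. Without HZ 2, the array with the highest 3'/5' ratio, the HZ difference was 0.64, and with that ratio as a term in the fit the values were 0.49 for KO and 0.65 for HZ. The spread of Htr1b within a genotype was small, with an SD of 0.13 on the log2 scale against a median of 0.23 over the kept probe sets, and only 8.49% of them had a smaller one. The smallest adjusted p of Htr1b under any alternative setting other than leaving out an array was 0.166, for HZ against WT with array weights.

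Maoa, the X-linked gene of the enzyme that degrades serotonin, overlapped among all genotypes. Its intensity was 920, 896 and 981 in KO, 867, 831 and 921 in HZ and 1127, 887 and 975 in WT and no genotype stood clear of another. The log2 difference was -0.09 for KO against WT (95% interval -0.41 to 0.23, limma adjusted p = 0.905), -0.18 for HZ against WT (-0.50 to 0.14, adjusted p = 0.826) and 0.09 for KO against HZ (-0.22 to 0.41, adjusted p = 0.927).

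For Maoa the intervals bound the KO level to between 0.754 and 1.17 times the WT level, and the HZ level to between 0.707 and 1.099 times the WT level. Its mean was 932 ± 43.8 in KO, 873 ± 45.4 in HZ and 997 ± 121 in WT (SD, n = 3 each), with WT 1 the highest array. Without WT 1 the KO difference was 0.0019. Whether Htr1b and Maoa differed in their response was not tested.

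Grin2b, which encodes the GluN2B subunit that predominates in NMDA receptors of the young cortex, was read by 2 probe sets that pointed in opposite directions between KO and WT. The brighter, 1431700_at, gave 123, 116 and 109 in KO, 215, 255 and 155 in HZ and 172, 185 and 134 in WT. Every KO array was below every WT and every HZ array, and the means were 116 ± 6.75 in KO, 208 ± 50.2 in HZ and 163 ± 26.4 in WT (SD, n = 3 each), with HZ and WT overlapping. The KO arrays, at 109 to 123, lay around the lowest mean signal that the filter kept (about 117), and dim signals are noisy.

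On this Grin2b probe set KO was 1.67-fold lower than HZ (log2 change -0.74 ± 0.21, SE, 95% interval -1.20 to -0.28, limma adjusted p = 0.441, unadjusted p = 0.00430). Against WT the log2 difference was -0.43 in KO (95% interval -0.89 to 0.03, adjusted p = 0.654) and 0.31 in HZ (-0.15 to 0.77, adjusted p = 0.810). Probe sets with every KO array below every HZ array made up 7.35% of those tested, and every KO array below every WT array 5.83%. The HZ value leaned on HZ 2, its highest array, without which the HZ difference from WT was 0.16 and the KO difference from HZ was -0.59.

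The other Grin2b probe set, 1422223_at, lay under the filter. It gave 121, 165 and 96.0 in KO, 34.8, 50.9 and 137 in HZ and 25.3, 28.6 and 25.4 in WT. KO and HZ arrays were all above the WT arrays, and HZ 3 alone lay in the range of KO. In the fit without a filter the log2 difference was 1.73 in KO against WT (95% interval 0.89 to 2.56, limma adjusted p = 0.427) and 0.92 in HZ against WT (0.09 to 1.76, adjusted p = 0.807). Among the 9050 probe sets under the filter, 7.58% had every KO array above every WT array, 9.78% every HZ array and 2.53% all 6. With a pseudocount of 64 in place of 16 the differences from WT were 1.06 in KO and 0.54 in HZ. Without HZ 3 the HZ difference from WT was 0.46. The probe sets disagree in sign between KO and WT, and the annotation used here does not say which transcripts each reads, so no direction is given for the gene.

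**Figure D2:**
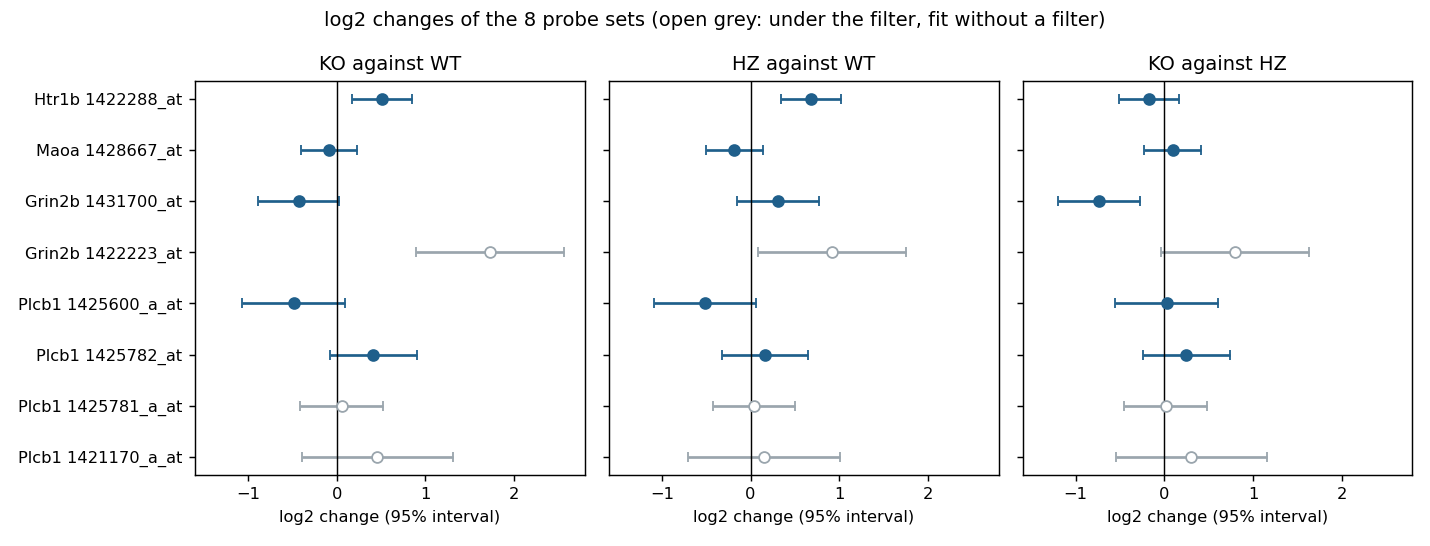
Fitted log2 change (horizontal axis) with its 95% interval for each of the 8 probe sets in KO against WT, HZ against WT and KO against HZ, with open grey symbols for the 3 probe sets under the filter. Htr1b sits right of 0 in both comparisons with WT (0.51 and 0.68), and the 2 Grin2b probe sets sit on opposite sides of 0 in KO against WT (-0.43 and 1.73).

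Plcb1, the phospholipase C that mGluR5 drives, was read by 4 probe sets, 2 of them past the filter. The brightest, 1425600_a_at, gave 200, 434 and 446 in KO, 388, 283 and 337 in HZ and 417, 458 and 589 in WT. Every HZ array was below every WT array, as for 4.39% of the probe sets tested, while KO overlapped both other genotypes through a low KO 1. The log2 difference from WT was -0.49 in KO (95% interval -1.07 to 0.09, limma adjusted p = 0.691) and -0.51 in HZ (-1.09 to 0.07, adjusted p = 0.790). KO against HZ it was 0.02 (-0.55 to 0.60, adjusted p = 0.987).

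Without KO 1 the KO value of this Plcb1 probe set was -0.13 against WT, so that 1 array set most of its size. The second kept probe set of Plcb1, 1425782_at, gave 236, 277 and 167 in KO, 172, 227 and 160 in HZ and 130, 190 and 174 in WT, and the genotypes overlapped. Its log2 difference was 0.41 in KO against WT (95% interval -0.08 to 0.90, adjusted p = 0.691), 0.16 in HZ against WT (adjusted p = 0.885) and 0.25 in KO against HZ (adjusted p = 0.849). Leaving out an array, these ran from 0.26 (without KO 2) to 0.60, from 0.017 (without WT 1) to 0.27 and from 0.10 (without KO 2) to 0.44. It thus carried the opposite sign to 1425600_a_at in both comparisons with WT.

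The remaining Plcb1 probe sets were under the filter. Probe set 1425781_a_at was nearly level, at 119 ± 18.5 in KO, 117 ± 11.9 in HZ and 113 ± 13.2 in WT (SD, n = 3 each), with log2 differences of 0.05, 0.04 and 0.02 in KO against WT, HZ against WT and KO against HZ. Its sign turned in both comparisons with WT when arrays were quantile normalized or set to one median. Probe set 1421170_a_at ranged from 17.2 to 89.6 over the 9 arrays, with overlapping genotypes and a log2 difference of 0.46 in KO against WT (95% interval -0.40 to 1.31, adjusted p = 0.828), which was 0.070 without KO 2. No direction can be given for Plcb1 as a gene.

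Over these genes, 0 of the 5 probe sets past the filter passed the limma threshold (adjusted p below 0.05) in KO against WT, where 0.00737% of 13576 probe sets passed, in HZ against WT, where 0% passed, or in KO against HZ, where 0.00737% passed. At an unadjusted p below 0.05 there was 1 in KO against WT (Htr1b, higher, as were 4.43% of all tested), 1 in HZ against WT (Htr1b, higher, as were 4.06%) and 1 in KO against HZ (Grin2b 1431700_at, lower, as were 3.76%). The within-genotype SD ran from 0.11 (Maoa) to 0.41 (Plcb1 1425600_a_at) on the log2 scale among the kept probe sets and reached 0.52 and 0.55 in the dim ones, Grin2b 1422223_at and Plcb1 1421170_a_at.

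**Figure D3:**
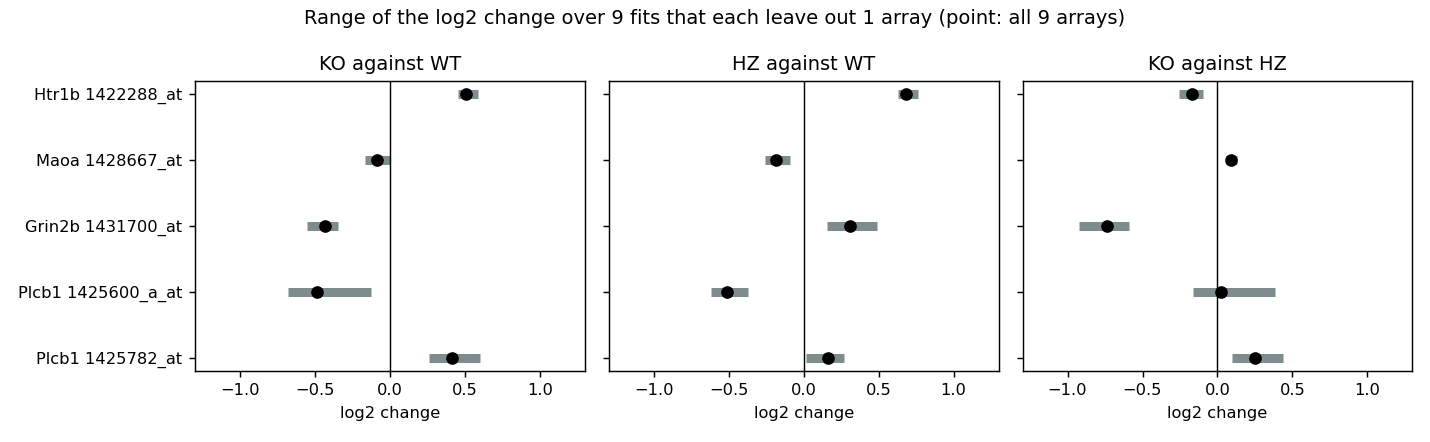
Log2 change of the 5 probe sets past the filter (horizontal axis) with all 9 arrays (point) and its range over 9 fits that each leave out 1 array (bar). The Htr1b bars stay at 0.45 or more in KO against WT and at 0.63 or more in HZ against WT, and the Plcb1 1425600_a_at bar for KO against WT reaches from -0.68 to -0.13.

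The rest of the serotonin branch was thinly measured. Of 21 genes listed for serotonin receptors, transport and synthesis, 5 passed the filter, namely Htr1b, Maoa and the receptor genes Htr1a, Htr3a and Htr5a. In KO against WT 4 were above 0 and 1 below (median log2 change 0.30, against 0.02 over 8503 kept genes), in HZ against WT 3 were above and 2 below (0.16, against 0.04), and in KO against HZ 2 were above and 3 below (-0.06, against -0.03). All kept genes split into 4557 above and 3946 below in KO against WT, 4818 and 3685 in HZ against WT and 3836 and 4667 in KO against HZ. By limma 0 passed over all probe sets in any comparison. The median of 0.30 for KO against WT was the value of the brighter Htr1a probe set. With the mean over all kept probe sets of a gene, that median was 0.17. Without KO 1 the serotonin median for KO against WT was 0.092, and without WT 3 that for HZ against WT was 0.055.

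Htr5a, a receptor that couples to inhibitory G proteins, gave 168, 121 and 161 in KO, 157, 159 and 150 in HZ and 71, 103 and 145 in WT. The HZ arrays of Htr5a all exceeded those of WT (log2 difference 0.53, limma adjusted p = 0.789), and KO overlapped WT (0.47, adjusted p = 0.662). Its WT mean of 106 lay below the lowest mean signal kept (about 117), so Htr5a passed the filter through its KO and HZ arrays. It counts among the 4 listed serotonin genes above 0 in KO against WT and the 3 in HZ against WT. Every HZ array lay above every WT array for 8.51% of the probe sets tested, and without WT 1 the Htr5a differences were 0.25 in KO and 0.31 in HZ. Htr1a, also an inhibitory receptor of cortical neurons, differed by 0.53 in KO against HZ on its brighter probe set (adjusted p = 0.621) and by 0.03 on its other. The brighter probe set was at 0.30 in KO against WT (adjusted p = 0.771) and -0.22 in HZ against WT (adjusted p = 0.858). The other was nearly level, at 0.03 in KO against WT and 2.5e-05 in HZ against WT. Without KO 1 the brighter Htr1a probe set was at 0.32 in KO against HZ and 0.092 in KO against WT. Without WT 2 it was at -0.090 in HZ against WT. Htr3a, the ion channel receptor of serotonin found on interneurons, was at -0.09 in KO against HZ (adjusted p = 0.944) and ran from -0.22 to -0.00069 leaving out an array.

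Around Grin2b, 14 of 31 listed ionotropic glutamate receptor and scaffold genes passed the filter. In KO against WT 10 were above 0 and 4 below (median log2 change 0.08), in HZ against WT 10 above and 4 below (0.05) and in KO against HZ 8 above and 6 below (0.07), and 0 passed by limma. Leaving out an array, the medians against WT ran from 0.0076 (without KO 2) to 0.16 in KO and from 0.0059 (without HZ 2) to 0.16 in HZ. Dlg4, the PSD-95 scaffold that anchors NMDA receptors, gave 532, 418 and 337 in KO, 364, 474 and 426 in HZ and 128, 337 and 187 in WT. It was higher than WT by a log2 difference of 1.01 in KO (limma adjusted p = 0.460), where KO 3 and WT 2 met, and of 0.998 in HZ, where the groups did not overlap (adjusted p = 0.789). For 8.51% of the probe sets tested, every HZ array lay above every WT array.

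Dlg4 and the brighter Grin2b probe set therefore differed in sign in KO against WT (1.01 and -0.43). The other Grin2b probe set, under the filter, had the same sign as Dlg4 (1.73). Camk2b, a subunit of the calmodulin kinase that works downstream of NMDA receptors, was at 0.33 in KO against WT (adjusted p = 0.623) and 0.30 in KO against HZ (0.673). Grik1, a kainate receptor subunit, was at 0.70 in KO against HZ (adjusted p = 0.622) and -0.48 in HZ against WT (0.802). Without KO 2 the Grik1 difference from HZ was 0.39 in KO, and without HZ 2 that from WT was -0.20 in HZ.

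In the metabotropic branch 14 of 28 listed genes passed the filter. In KO against WT 2 were above 0 and 12 below (median log2 change -0.09), in HZ against WT 9 above and 5 below (0.10), and in KO against HZ 3 above and 11 below (-0.11), and 0 passed by limma. Without WT 2 the median for KO against WT was 0.03. The median for HZ against WT was 0.018 without HZ 2 and 0.0046 with arrays set to one median. Rgs2, a regulator that shuts off Gq, the G protein between mGluR5 and phospholipase C, gave 326, 460 and 933 in KO, 1455, 2014 and 1140 in HZ and 1791, 881 and 1365 in WT.

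Rgs2 was lower in every KO array than in any HZ array (log2 difference -1.49, limma adjusted p = 0.307), while KO 3 overlapped WT (-1.29, adjusted p = 0.460), and its second kept probe set had the same sign in both comparisons. Of the probe sets tested, 7.35% had every KO array below every HZ array. Rgs7, a regulator of inhibitory G proteins, was at -0.43 in KO against HZ (adjusted p = 0.499) and 0.34 in HZ against WT (0.789). Prkca, a protein kinase C activated by the products of phospholipase C, was at -0.40 in KO against WT (0.629), and Itpr2, a receptor for inositol trisphosphate, was at 0.32 in HZ against WT (0.818). Prkca was at -0.25 without KO 2, and Itpr2 at 0.17 without HZ 3.

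In the cyclic AMP branch, whose members Adcy1 and Prkar2b were not analysed here, 25 of 41 listed genes passed the filter. In KO against WT 17 were above 0 and 8 below (median log2 change 0.07), in HZ against WT 12 above and 13 below (-0.02), and in KO against HZ 16 above and 9 below (0.08), and 0 passed by limma. The median for KO against WT was 0.011 with arrays set to one median and 0.13 with array weights, and ran from 0.032 (without WT 1) to 0.17 (without WT 2) leaving out an array. With arrays set to one median, that for HZ against WT was -0.11. Pde7b, a phosphodiesterase that degrades cyclic AMP, gave 208, 161 and 176 in KO, 204, 178 and 231 in HZ and 95, 145 and 97 in WT. All its KO and HZ arrays exceeded all WT arrays, as for 2.21% of the probe sets tested, Htr1b among them. The log2 differences of Pde7b from WT were 0.64 in KO (adjusted p = 0.518) and 0.80 in HZ (adjusted p = 0.789). Its WT mean of 112 lay below the lowest mean signal kept (about 117), so it passed the filter through its KO and HZ arrays.

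Adcy6, a calcium-inhibited adenylyl cyclase, was at 0.50 in KO against WT (limma adjusted p = 0.552) and 0.38 in KO against HZ (0.673). Its arrays did not overlap in either, as for the 7.83% and 6.67% of probe sets with every KO array above every WT or every HZ array, and without KO 1 its difference from HZ was 0.23. Prkar1a, a type I regulatory subunit of protein kinase A, was at -0.35 in HZ against WT on its brighter probe set (adjusted p = 0.789) and -0.03 on its other. Pkia, an inhibitor of protein kinase A, was at 0.37 in KO against HZ (0.553) and at -0.06 on its other probe set, and the brighter was at 0.24 without KO 2.

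Of 26 other genes tied to the barrel map, 19 passed the filter, with 14 above 0 and 5 below in KO against WT (median log2 change 0.12), 13 and 6 in HZ against WT (0.06) and 12 and 7 in KO against HZ (0.03), and 0 passed by limma. With arrays set to one median the medians were 0.056 in KO against WT, -0.033 in HZ against WT and 0.057 in KO against HZ. Rorb, the layer IV transcription factor, gave 325, 356 and 302 in KO, 709, 518 and 601 in HZ and 541, 460 and 589 in WT. Its KO arrays lay below all others, with log2 differences of -0.66 from WT (adjusted p = 0.435) and -0.86 from HZ (0.247). Such a gap, with KO lower and no overlap, was found against WT for 5.83% of the probe sets tested. Against HZ it was found for 7.35%, and the share with both gaps at once was not counted. Rorb and the brighter Grin2b probe set shared an order of means, HZ above WT above KO, with HZ and WT overlapping in both. Rorb was named for its small p in KO against WT and KO against HZ. How many genes share this order was not counted, and a link between the genes was not tested. The other Grin2b probe set did not share the order, with means of 127 in KO, 74.4 in HZ and 26.4 in WT.

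Among the other barrel map genes, Ncan, a matrix proteoglycan, was at 0.75 in KO against WT on its brighter probe set (limma adjusted p = 0.454) and -0.13 on its other. Robo1, a receptor for Slit proteins, was at 1.07 in KO against HZ (0.336). Epha4, an ephrin receptor, was at -0.56 in HZ against WT (0.789) and 0.18 on its other probe set.

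**Figure D4:**
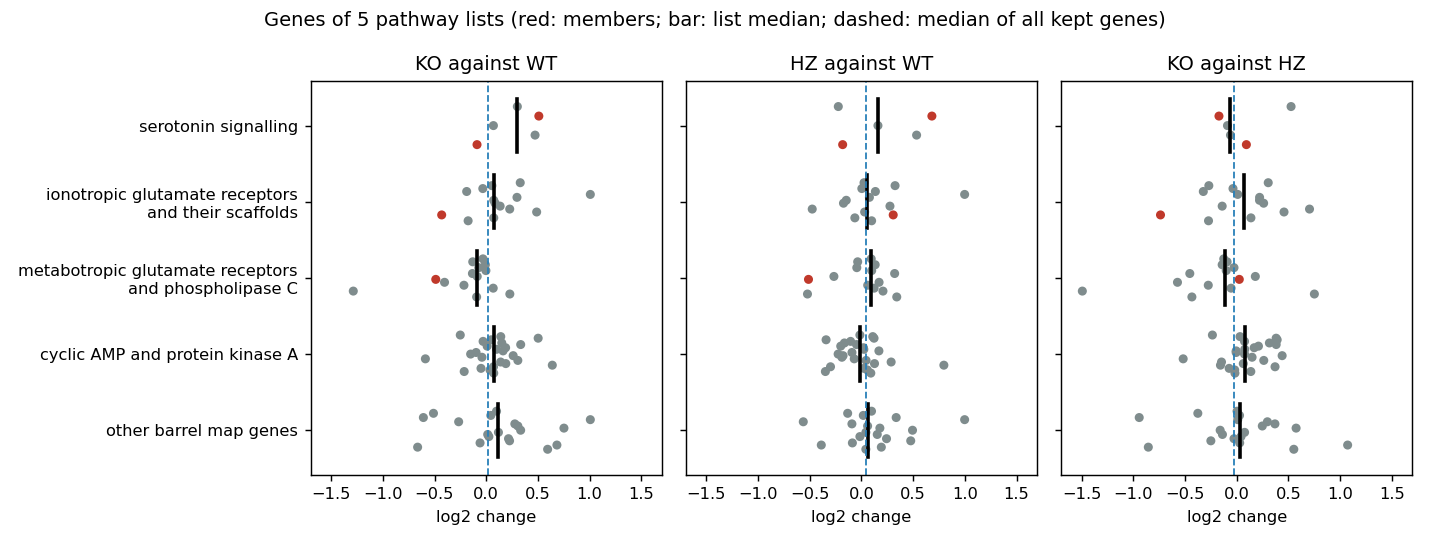
Log2 change (horizontal axis) of each kept gene of 5 pathway lists in KO against WT, HZ against WT and KO against HZ, with members in red, the list median as a black bar and the median of all kept genes as a dashed line. In KO against WT the serotonin median lies at 0.30 and the metabotropic median at -0.09, beside 0.02 for all kept genes. With the mean over all kept probe sets of a gene, the serotonin median was 0.17.

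Genes whose pattern was most like that of a member were sought among the brightest kept probe set of each gene over the 9 arrays, as a description. Htr1b was most like Ubap2, a ubiquitin-binding protein gene (Pearson r = 0.958, and 0.943 to 0.972 leaving out each array), and Ccar2, a nuclear regulator of the cell cycle and apoptosis (r = 0.921). Ubap2 averaged 266 ± 18.4 in KO, 308 ± 16.9 in HZ and 203 ± 21.5 in WT (SD, n = 3 each), the same order as Htr1b. Maoa was most like Slirp (r = 0.910), which encodes an RNA-binding protein of mitochondria, and Rassf1 (r = 0.893, but as low as 0.713 leaving out 1 array).

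The brighter Grin2b probe set was most like Gpr12, an orphan receptor gene (r = 0.923), and Calb2, the calretinin gene (r = 0.915). Calb2 averaged 372 ± 82.7 in KO, 905 ± 372 in HZ and 733 ± 306 in WT (SD, n = 3 each). Plcb1 1425600_a_at was most like Ppil2 (r = 0.920) and Pabpc1, the poly(A)-binding protein gene (r = 0.910). Correlations of this size are the highest among 8503 genes over 9 arrays that also share differences in RNA and scaling, and r of at least 0.9 was reached by 5 genes for Htr1b, 1 for Maoa, 2 for Grin2b and 6 for Plcb1.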

How the data were processed

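Per the submitters' processing notes, the deposited intensities are probe set signals made with MAS5 in Affymetrix Expression Console. No software version, filter or scaling target is given in the sources used here. Trimmed by 2% at each end, the mean was 500.2 on every array, so the authors' intensities had been scaled to a common level, which assumes that most transcripts are alike on all arrays. Dim MAS5 signals are noisy.

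The values were taken as log2(intensity + 16), which makes a fold change one of log2(value + pseudocount), too small for dim probe sets. After removal of 64 control probe sets, the 60% with the highest mean log2 value were kept (13576 probe sets, mean signal about 117 or more, 8503 genes). Genotype was fitted by limma 3.58.1 (R 4.3.3) over the 9 arrays (eBayes with an intensity trend, 6 residual and 6.94 prior degrees of freedom). P-values were 2-sided and adjusted by Benjamini-Hochberg over all kept probe sets, with a threshold of 0.05. The procedure was tested on simulated data. Probe sets were named by the platform annotation. A gene in a list was represented by its brightest probe set. The members and lists were chosen with earlier results of these data known. Named were all member probe sets, Gap43, in each of 5 pathway lists the 2 other genes of smallest p per comparison, and the 2 genes most like each member by Pearson correlation. Same-numbered mice were not said to be paired, and correlations of their deviations ran from -0.26 to 0.11, so no block was used. Alternatives were another pseudocount (64), no filter, quantile or median scaling, array weights, no trend, a replicate block, the 3'/5' ratio of the Actb and Gapdh controls as a term, and leaving out each array.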

Additional observations from a re-analysis of the deposited data

How the results depend on the processing

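No member probe set passed the adjusted threshold of 0.05 under any alternative run, and both signs of Htr1b against WT and the signs of the brighter Grin2b probe set in all 3 comparisons were kept throughout. The numbers of probe sets past the threshold, which were 1 (KO against WT), 0 (HZ against WT) and 1 (KO against HZ) as reported, were small and moved easily. For KO against WT the number was 0 without the filter, 0 without the intensity trend and 5 with array weights. For HZ against WT it was 3 with array weights. For KO against HZ it was 0 without the filter, 0 with quantile normalization, 0 with arrays set to one median, 0 without the trend, 3 with the 3'/5' ratio fitted and 2 with a replicate block. Leaving out each array gave 0 to 2 in each of the 3 comparisons. The causes were not tested. Under the replicate block the member calls did not alter. Of 9 arrays 3 correlated best with an array of their own number.

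Signs near 0 turned. Plcb1 1425781_a_at moved to -0.016 (quantile normalization) and -0.00077 (one median) in KO against WT, to -0.067 and -0.045 in HZ against WT, and to -0.0062 (array weights) and -0.0021 (3'/5' ratio) in KO against HZ. Plcb1 1425600_a_at was at -0.00050 with the 3'/5' ratio in KO against HZ. Over the fits that leave out an array, Plcb1 1425781_a_at ran from -0.034 to 0.17, -0.041 to 0.12 and -0.072 to 0.13 in KO against WT, HZ against WT and KO against HZ, Plcb1 1421170_a_at from -0.16 to 0.45 in HZ against WT and -0.083 to 0.62 in KO against HZ, Plcb1 1425600_a_at from -0.16 to 0.38 in KO against HZ, Maoa from -0.17 to 0.0019 in KO against WT and Gap43 from -0.27 to 0.090 in HZ against WT. List medians that turned were cyclic AMP in HZ against WT (0.019 with the mean over probe sets, and -0.038 to 0.049 leaving out an array), and in HZ against WT with one median per array ionotropic glutamate receptors (-0.032) and other barrel map genes (-0.033). Leaving out an array, the serotonin median ran from -0.14 to 0.072 in KO against HZ, the ionotropic median from -0.0013 to 0.13 in KO against HZ, and the metabotropic median from -0.19 to 0.027 in KO against WT. Precision is limited by 3 arrays per genotype, and for the 3 probe sets under the filter by signals near the noise of MAS5. The KO arrays of Grin2b 1431700_at also lay at the edge of the filter.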
